A study of Mus musculus with 2 samples.

Results

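The 10 genes followed here move cholesterol out of cells or take lipoproteins in, and they were counted in the retinal pigment epithelium (RPE)-choroid of mice: Apoe, Apoa1, Abca1, Abcg1, Vldlr, Lrp1, Scarb1, Pltp, Soat1 and Npc2. They were chosen by name, and all 10 are among the 23420 gene rows of the count table. The RPE is the pigmented cell layer behind the photoreceptors, and the choroid is the vascular coat behind it. One group of 3 animals is labelled AhR -/- (strain B6.129-AhR tm1Bra/J), in which Ahr, the gene of the aryl hydrocarbon receptor (AhR), is disrupted in every cell. The other group of 3 animals is labelled AhR +/+ (C57BL6/J), a separate strain name, and nothing in the labels says that the groups were littermates. All mice were untreated and 11 to 13 months old. Each library held RNA of 2 pooled eyes of 1 animal, enriched for polyadenylated transcripts. The comparison asks how transcript levels differ between the genotypes at this age.

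The libraries held between 18058725 and 28692624 gene counts. Reads tallied as aligned to more than 1 place made up 22.9% to 25.1% of the knockout-labelled and 18.7% to 19.4% of the wild-type libraries, and the part of this in the results was not tested. Levels are given as CPM, the usual unit of counts relative to library size, after scaling by the trimmed mean of M-values (TMM). Ahr itself was counted at 40.6 to 45.4 CPM in the knockout group and 19.7 to 26.02 CPM in the wild type. A gene-wide count gives no view of a partial deletion, so the labels are taken as they stand and the mutant libraries are named knockout-labelled. Markers of the labelled tissue were present in every library: transcripts of 10 RPE marker genes summed to 21302 to 37180 CPM in the knockout-labelled group and 28654 to 39455 CPM in the wild type, and none of the 10 was at 0. The same holds for 11 endothelial markers of the choroid (785 to 1232 and 1181 to 1245 CPM). Markers of corneal and conjunctival epithelium, no part of the labelled tissue, summed to 3768, 15680 and 12204 CPM in knockout-labelled animals 1, 2 and 3 and to 6258, 2860 and 3159 CPM in wild-type animals 1, 2 and 3. In the same order, photoreceptor markers summed to 15060, 13592 and 13441 CPM and to 9402, 10633 and 20319 CPM. Those of Muller glia and astrocytes summed to 3015, 2776 and 3136 CPM and to 3480, 2798 and 2630 CPM. For skeletal muscle the sums were 1453, 3104 and 1186 CPM and 750, 1018 and 2257 CPM. The levels given here are therefore those of the libraries, and the part of these other tissues in them was not tested. Since these are bulk samples, fewer cells of a type and less RNA per cell cannot be told apart.

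Cells cannot break down the sterol ring, so surplus cholesterol has to leave them or be stored as esters. ABCA1 and ABCG1 pass cholesterol and phospholipid to apolipoproteins such as apoE and apoA-I, a step switched on by the liver X receptors (LXR) when oxysterols rise. The RPE takes up lipid from the blood side through lipoprotein receptors and from the retinal side by engulfing photoreceptor outer segments, and it secretes apoB- and apoE-containing lipoproteins towards Bruch's membrane, where lipid gathers with age. In lysosomes NPC2 hands cholesterol to NPC1 for export, and SOAT1 (ACAT1) in the endoplasmic reticulum esterifies cholesterol for storage.

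AhR binds DNA, and the promoters of the 10 genes were read for its core motif. AhR together with its partner ARNT binds GCGTG. RefSeq promoter windows (GRCm38.p6, 250 bases before to 50 after a transcript start) were matched for 8 of the 10 genes, with 11 windows in all. Searched on both strands, GCGTG was found for Soat1, Pltp and Npc2, that is, for 3 of the 8 genes (37.5%), against 35.2% of the 27025 genes with a full window. The longer form TNGCGTG, which contains the core, was found for none of the 8 and for 5.84% of all genes. A match of these letters is a description of the window, not a site. The 250 bases before the start of Soat1 and Pltp are shown because the levels of these genes ran together over the libraries, as described further on. Both are given 5′ to 3′ with GCGTG in capitals. They lie at chr1:156474329-156474578 and chr2:164857709-164857958, both on the minus strand. In Soat1 the core lies 66 to 62 bases before the start, and another begins at the start itself (bases 1 to 5, not shown). In Pltp it lies 203 to 199 bases before the start.
Soat1: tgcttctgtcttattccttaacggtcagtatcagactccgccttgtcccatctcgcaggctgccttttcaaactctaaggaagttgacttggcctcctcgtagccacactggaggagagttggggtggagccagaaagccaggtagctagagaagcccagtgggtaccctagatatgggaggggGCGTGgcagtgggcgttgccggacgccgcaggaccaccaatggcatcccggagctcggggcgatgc
Pltp: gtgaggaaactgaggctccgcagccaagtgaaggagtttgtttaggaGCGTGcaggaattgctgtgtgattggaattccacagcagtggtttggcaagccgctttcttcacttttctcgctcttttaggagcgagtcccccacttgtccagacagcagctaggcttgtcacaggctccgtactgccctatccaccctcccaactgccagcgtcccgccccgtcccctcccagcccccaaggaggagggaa

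The Abca1 promoter is shown because Abca1 is the textbook LXR target and, of the 10 genes, the one whose libraries separated by genotype. Of all genes tested, 20% separated in this way, counting both directions. LXR with its partner RXR binds direct repeats spaced by 4 bases. The strict form, AGGTCA repeated with 4 free bases between, was found in none of the windows of the 8 genes (0.0148% of all genes), and neither was AGGTNA followed after 5 free bases by GGTCA (0.0962%). A further relaxed form, GGTNA followed after 5 free bases by GGTCA, was tried with the known element of the Abca1 promoter in mind. It matched Abca1, 67 to 53 bases before the start, on the strand opposite to the one printed. Because the form was loosened with that element in mind, its match in Abca1 adds no support. The form is found in 0.226% of all genes and in no other of the 8, which is a description only. The sterol element TCACNCCAC was found for none of the 8 (1.44% of all genes). The window is chr4:53159896-53160145, minus strand, with the match in capitals, and it holds no GCGTG on either strand.
Abca1: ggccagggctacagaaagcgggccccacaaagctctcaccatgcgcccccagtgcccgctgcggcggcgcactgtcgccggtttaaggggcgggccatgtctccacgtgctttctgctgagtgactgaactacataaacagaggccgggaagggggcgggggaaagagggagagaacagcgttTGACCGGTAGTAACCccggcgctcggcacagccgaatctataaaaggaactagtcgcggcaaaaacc

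None of the 10 genes was called as different between the genotypes. Counts were tested with edgeR's quasi-likelihood test over all 15796 genes that passed a filter on low counts, and a gene was called at a Benjamini-Hochberg adjusted p under 0.05. All 10 genes passed the filter. In the same test 8 genes in all were called, or 0.0506%. Of the 10 genes, 2 (Abca1 and Lrp1) had an unadjusted p under 0.05, and both were lower in the knockout-labelled libraries. Among all genes tested 14.2% reached that, 6.62% on the lower side and 7.55% on the higher side. With DESeq2 Apoe joined these 2 genes, and 14.9% of all genes had an unadjusted p under 0.05. The log2 fold change, knockout-labelled over wild type, was below 0 for 8 of the 10 and for 48.8% of all genes. Its median was -0.17 over the 10 and 0.01 over all genes. This lean depended on the fit. With the GC offset described further on, 6 of the 10 were below 0 (median -0.16, and 0.02 over all genes). With the mean level of the corneal markers added to the fit, 5 of the 10 were (median 0.03, and -0.0007 over all genes). The 10 genes were listed with earlier results of these data known, so these counts are descriptions.

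**Figure D1:**
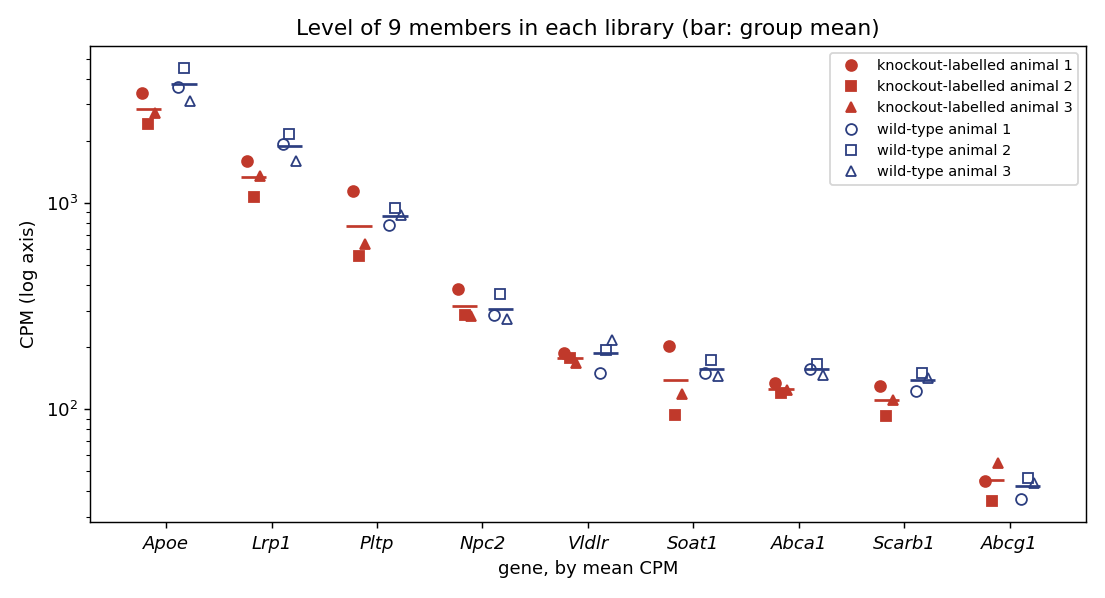
Level of 9 of the 10 genes in each library, in CPM on a log axis. Filled red symbols are knockout-labelled and open blue symbols wild-type animals, the symbol shape gives the animal number, and bars are group means. Apoa1 is left out because it was at or near 0. Abca1 is the gene whose red and blue symbols do not overlap. Knockout-labelled animal 1 stands above animals 2 and 3 for Pltp and Soat1.

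The apolipoproteins stood at opposite ends of the scale. Apoe (chr7:19696109-19699188, minus strand) encodes the ligand that carries lipid between cells and into cells through lipoprotein receptors. This and the other gene positions are from GENCODE M21 on GRCm38. Apoe was among the most abundant transcripts of the libraries, ranking 16 of 15796 by mean CPM. Its level was 3399, 2419 and 2719 CPM in knockout-labelled animals 1, 2 and 3, against 3624, 4523 and 3103 CPM in wild-type animals 1, 2 and 3. The groups overlapped, since knockout-labelled animal 1 lay above wild-type animal 3. Group means were 2845 ± 502 and 3750 ± 718 CPM (SD, n = 3 each). This gave a log2 fold change of -0.40 (SE 0.19, 95% interval -0.83 to 0.03, edgeR adjusted p = 0.388). Apoa1 (chr9:46228580-46230466, plus strand), the main protein of HDL, was barely detected. It had 0, 12 and 10 counts in the knockout-labelled and 5, 14 and 12 counts in the wild-type libraries. The 0 allows up to 0.126 CPM in that library, counting error only, and no group difference was detectable at this depth (log2 fold change -0.17, SE 1.29).

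Of the cholesterol exporters, Abca1 separated the groups and Abcg1 did not. Abca1 (chr4:53030787-53159895, minus strand), which loads lipid-poor apolipoproteins, was at 133, 119 and 123 CPM in the knockout-labelled and 157, 165 and 146 CPM in the wild-type animals. Every knockout-labelled library lay below every wild-type library, as it did for 9.96% of all genes tested (20% without overlap, counting both directions). The means were 125 ± 7.15 and 156 ± 9.56 CPM (SD, n = 3 each), or 0.80-fold. The log2 fold change was -0.32 (SE 0.12, 95% interval -0.58 to -0.05), with an unadjusted p of 0.0243 and an edgeR adjusted p of 0.286. Abca1 had the smallest spread within the knockout-labelled group among the 10 genes, apart from Vldlr, at an SD of 0.081 on the log2 CPM scale. Abcg1 (chr17:31057675-31117988, plus strand), which exports cholesterol to formed HDL particles, was at 44.7, 36.1 and 54.8 CPM against 36.7, 46.2 and 44.1 CPM. Both its highest and its lowest library were knockout-labelled (log2 fold change 0.10, 95% interval -0.30 to 0.49), and without animal 3 of that group the sign turned (-0.07).

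Among the receptors, Lrp1 differed most in size and Vldlr least. Lrp1 (chr10:127538161-127621148, minus strand) encodes a large endocytic receptor for apoE-bearing remnants and many other ligands. It was at 1601, 1072 and 1345 CPM in the knockout-labelled and 1917, 2147 and 1586 CPM in the wild-type animals. The groups overlapped by 1 library on each side, knockout-labelled animal 1 lying just above wild-type animal 3. The means were 1339 ± 264 and 1883 ± 282 CPM (SD, n = 3 each), or 0.71-fold, with a log2 fold change of -0.49 (SE 0.19, 95% interval -0.92 to -0.07). Its unadjusted p was 0.0278 and its edgeR adjusted p 0.299. Scarb1 (chr5:125277087-125341094, minus strand) encodes SR-BI, the HDL receptor through which the RPE also takes up carotenoids. It was at 130, 92.8 and 110 CPM against 122, 150 and 142 CPM, with knockout-labelled animal 1 above wild-type animal 1. The log2 fold change of Scarb1 was -0.31 (SE 0.15, 95% interval -0.65 to 0.03, edgeR adjusted p = 0.394). Vldlr (chr19:27216484-27254231, plus strand), a receptor whose loss in mice leads to vessel growth from the retina towards the RPE, was at 186, 177 and 167 CPM against 149, 194 and 217 CPM. The knockout-labelled values of Vldlr lay inside the wild-type range (log2 fold change -0.07, 95% interval -0.43 to 0.28).

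Apart from the barely detected Apoa1, Pltp and Soat1 had the widest spread, and it lay within the knockout-labelled group. Pltp (chr2:164839518-164857711, minus strand) encodes phospholipid transfer protein, which remodels HDL. Its level was 1141, 551 and 629 CPM in knockout-labelled animals 1, 2 and 3 and 780, 948 and 869 CPM in the wild type. Soat1 (chr1:156424525-156474331, minus strand), the cholesterol ester synthase, was at 202, 94.0 and 118 CPM and at 149, 173 and 145 CPM. For both genes knockout-labelled animal 1 was the highest of the 6 libraries and animals 2 and 3 of that group were the lowest, with the wild type between. By its Xist and Y-linked transcripts animal 1 is female and animals 2 and 3 are male in both groups. Knockout-labelled animal 1 also stood apart in red cell transcripts: Alas2, an enzyme of heme synthesis, was at 847 CPM there, 45.4 and 57.9 CPM in animals 2 and 3 of that group and 3.76, 16.2 and 27.4 CPM in the wild type. Corneal and conjunctival markers also divided the knockout-labelled group, at 3768 CPM in animal 1 and 15680 and 12204 CPM in animals 2 and 3. The part of sex, red cell transcripts or corneal transcripts in the spread of Pltp and Soat1 was not tested beyond the fits given below. The SD on the log2 CPM scale was 0.56 (Pltp) and 0.57 (Soat1) within the knockout-labelled group and 0.14 for each within the wild type. The log2 fold changes were -0.16 (SE 0.26, 95% interval -0.74 to 0.42) and -0.18 (SE 0.25, 95% interval -0.74 to 0.39). With a sex covariate they were -0.24 (SE 0.24) and -0.25 (SE 0.22). With the mean level of the corneal markers in the fit they were 0.31 (SE 0.16) and 0.26 (SE 0.18). Without knockout-labelled animal 1 they were -0.55 and -0.56, still not called (edgeR adjusted p = 0.0642 and 0.069). In that fit 4.95% of all genes were called and 23% had an unadjusted p under 0.05, as both of these genes did. Without knockout-labelled animal 2 the log2 fold changes were 0.03 for both. Pltp shares 495 exon bases (19.3% of its exon length) with Ctsa on the opposite strand, and reads there cannot be told apart without a stated strand setting. Ctsa stood at 289, 220 and 223 CPM against 239, 284 and 220 CPM.

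Npc2 (chr12:84754562-84773152, minus strand) encodes the soluble cholesterol carrier of the lysosome. It was at 380, 286 and 283 CPM in the knockout-labelled and 285, 361 and 273 CPM in the wild-type animals. The ranges nearly coincided (log2 fold change 0.05, SE 0.17, 95% interval -0.35 to 0.44). Its gene lies on chromosome 12, as Ahr does, but 49.2 Mb away from it. In the authors' deposited table all 10 genes are listed and 0 have an FDR under 0.05, beside 2.37% of the 16561 genes in that table. The lowest of the 10 is that of Lrp1 (0.334, log2 fold change -0.45 with the sign turned to knockout over wild type).

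**Figure D2:**
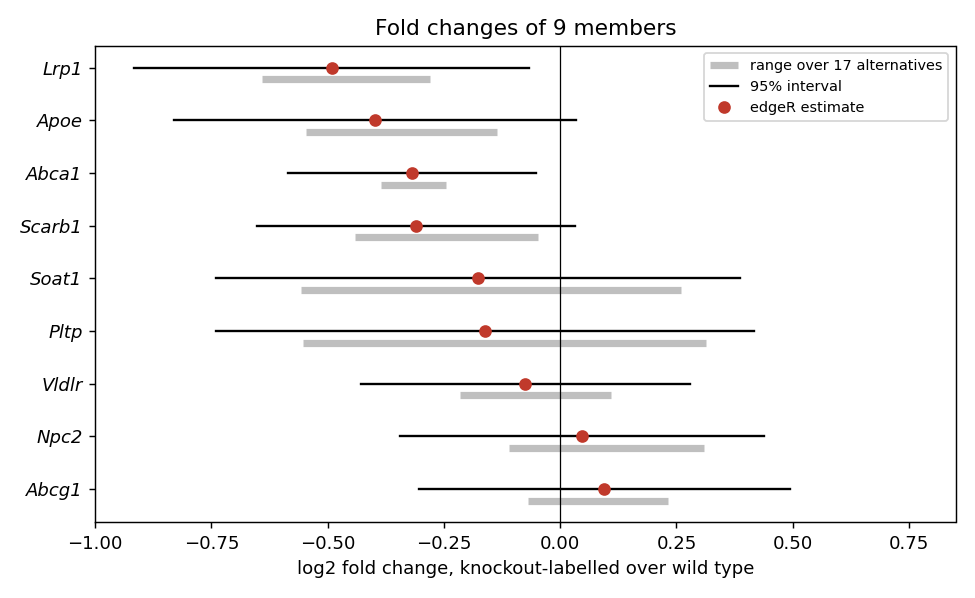
Log2 fold change of 9 genes, knockout-labelled over wild type. Red points are edgeR estimates, black lines 95% intervals and grey bars the range over 17 other ways of processing or testing. The intervals of Lrp1 and Abca1 lie below 0 before adjustment for multiple tests, and the grey bars of Lrp1, Apoe, Abca1 and Scarb1 stay below 0. Apoa1 is left out because its interval spans -3.08 to 2.74.

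Levels were also compared per kilobase of exon, so that genes of different length can be set side by side. The length used was that of all annotated exons of a gene merged, 5438 bases for Npc2. The transcripts made may be shorter, so the order holds for this length only. Over the 6 libraries it ran from Apoe to Apoa1. Apoe had a mean of 1542 ± 348 CPM per kilobase (SD, n = 6), followed by Pltp at 320 ± 84.0 and Lrp1 at 90.9 ± 21.8. Npc2 came next at 57.3 ± 8.59, and its range over libraries overlapped that of Lrp1. Vldlr (18.1 ± 2.30), Soat1 (15.0 ± 3.92), Scarb1 (14.6 ± 2.45) and Abca1 (13.6 ± 1.79) formed a run in which each overlapped the next. Abcg1 (5.995 ± 0.95) and Apoa1 (0.30 ± 0.20) stood below them with no overlap. By this measure the secreted carrier Apoe stood above the transfer protein Pltp, and both stood above the membrane proteins.

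Over the 6 libraries 6 of the 10 genes formed pairs, each gene of a pair being the other's nearest. Likeness was measured as the root mean square difference of log2 CPM after each gene's mean was taken off, so that 0 means the same profile. Pltp and Soat1 were nearest to each other (0.071), and the ratio of their CPM stayed between 5.22 and 5.97 in all 6 libraries. Apoe and Lrp1 were nearest to each other too (0.083). Both were lowest in knockout-labelled animal 2 and highest in wild-type animal 2, but so were Abca1 and Scarb1. Abca1 and Scarb1 formed the third pair (0.133). Vldlr, Npc2, Abcg1 and Apoa1 had no such partner: their nearest genes lay at 0.207 (Scarb1), 0.222 (Abca1), 0.230 (Vldlr) and 1.72 (Vldlr). The points share their libraries, and a distance over 6 libraries is a description with no test. How often genes outside the 10 form such pairs was not looked at.

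Marker genes of cell types moved with some of these profiles. The mean log2 CPM of the 10 RPE markers was 9.50, 8.71 and 8.92 in knockout-labelled animals 1, 2 and 3 and 9.26, 9.54 and 9.31 in the wild type, so that it too was low in knockout-labelled animals 2 and 3. That of the corneal and conjunctival markers was high in those animals, at 8.32, 10.20 and 9.92 against 8.98, 7.79 and 8.06. Of 14 marker groups looked up here, RPE markers were nearest to Soat1 (0.102), Pltp (0.109) and Scarb1 (0.120). Rpe65, the isomerase of the visual cycle, stood at 2987, 1326 and 1423 CPM and at 2201, 2685 and 2394 CPM. The RPE markers did not all move alike: 8 had a log2 fold change below 0 and 2 above. Lrat, at 0.36, stood at 1108, 530 and 535 CPM and at 510, 590 and 590 CPM. Apoe and Lrp1 lay nearest to the 8 smooth muscle and pericyte markers (0.134 and 0.131), whose mean log2 CPM was 6.21, 5.79 and 5.79 against 6.43, 6.39 and 6.23, and almost as near to the RPE markers (0.138 and 0.158). Npc2 lay nearest to the 12 macrophage markers found in the table (0.068), whose mean log2 CPM was 6.33, 5.86 and 5.85 against 5.92, 6.07 and 5.73. Abca1 lay nearest to the 8 fibroblast and stroma markers (0.104), at 8.89, 8.99 and 8.91 against 9.26, 9.15 and 9.20. Of these 8 markers 7 had a log2 fold change below 0 and 1 above, from -1.17 (Col1a1) to 0.33 (Lum). No marker of these groups was at 0 in all libraries. The part of cell makeup in the differences was not tested. This look at markers was chosen after the values of the 10 genes were seen.

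**Figure D3:**
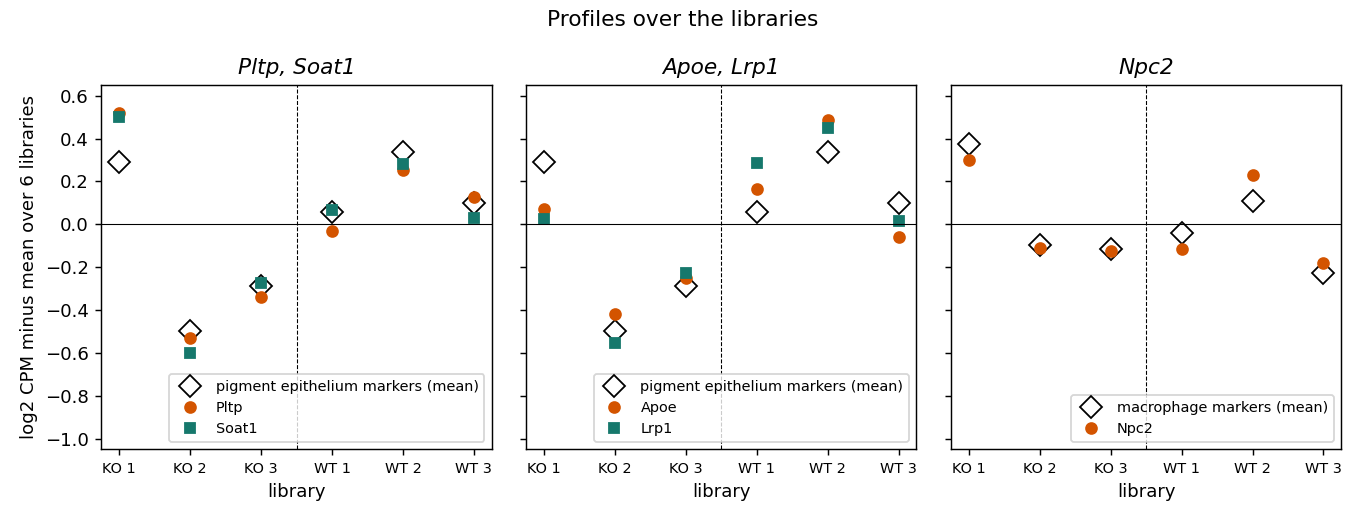
Log2 CPM minus the mean over 6 libraries (vertical axis) in each library (KO, knockout-labelled; WT, wild type; number, animal). Coloured symbols are genes and open diamonds the mean of a marker list. Pltp and Soat1 lie close together and, like the RPE markers, low in KO 2 and KO 3. Npc2 stays near the macrophage markers.

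Fold changes of all genes also moved with the GC content of the transcript, and Apoe and Lrp1 are rich in GC. Ranked by GC content, the poorest decile of genes (median 39.7% GC) had a median log2 fold change of 0.17 and the richest (median 59.7%) one of -0.26. Apoe (59.5% GC) belongs to that last decile and Lrp1 (57.9%), Pltp (57.3%) and Apoa1 (56.8%) to the one before, where the median was -0.17. With an offset that removes each library's trend on GC, the log2 fold change was -0.14 for Apoe and -0.28 for Lrp1. Abca1 (47.5%) and Scarb1 (48.5%) lie in deciles with medians of 0.06 and 0.04, and with the offset they were at -0.36 and -0.34. Within its own decile Abca1 stood at the 12.1 percentile of fold changes, Scarb1 at 11.4 and Lrp1 at 15.3, while Apoe stood at 33.6. With the mean level of the corneal markers added to the fit, the values of Apoe, Lrp1, Abca1 and Scarb1 were -0.15, -0.28, -0.24 and -0.05. None was called, and none of the 10 genes, Abca1 and Lrp1 included, kept an unadjusted p under 0.05 in that edgeR fit (8.51% of all genes did). With the GC offset Abca1 was the only one of the 10 that had one (12.2% of all genes). What the GC trend and the corneal transcripts contribute was not tested beyond these fits.

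**Figure D4:**
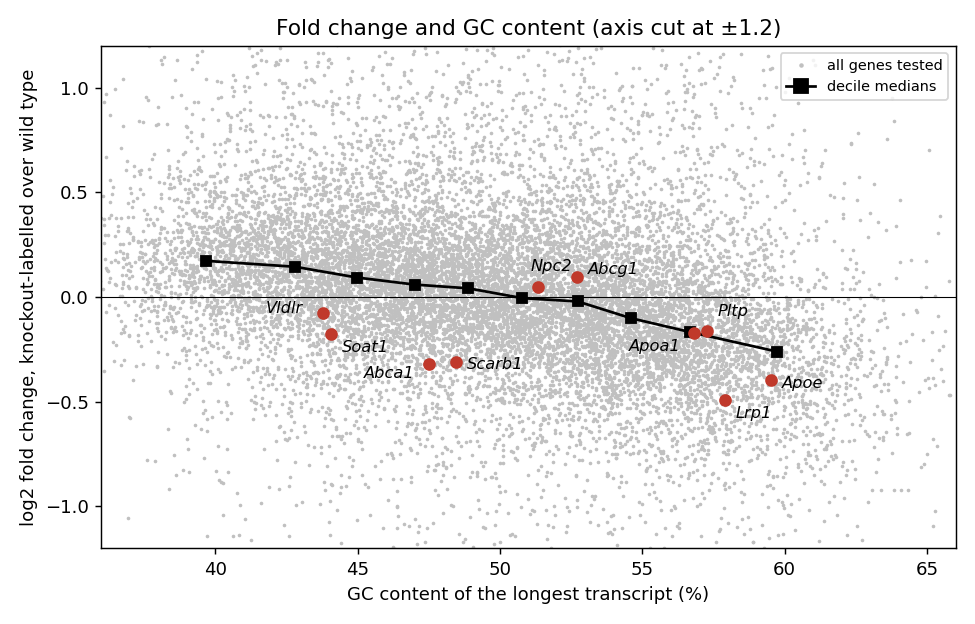
Log2 fold change (vertical axis, cut at ±1.2) against GC content of the longest transcript. Grey points are all genes tested, black squares the medians of 10 equal groups by GC content, red points the 10 genes. Lrp1 and Apoe lie where the medians are low, while Abca1 and Scarb1 lie below medians that are near 0.

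Other genes of the same pathway were taken from lists by role. Of 66 genes, 55 passed the filter and 0 were called by edgeR's quasi-likelihood test. DESeq2 called 4 of them, beside 3.12% of all genes, and the edgeR exact test 2, beside 2.26%. In the quasi-likelihood test 5 had an unadjusted p under 0.05 on the higher and 8 on the lower side. Of all genes tested, 7.55% and 6.62% did. The median log2 fold change was -0.04 (0.01 over all genes). For 12 of the 55 all knockout-labelled libraries lay below all wild-type ones, and for 4 above, beside 9.96% and 10% of all genes.

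Among the other apolipoproteins 4 of 11 passed the filter. Apod, a lipocalin that binds small lipids, was at 2084, 765 and 994 CPM in the knockout-labelled and 421, 798 and 367 CPM in the wild-type animals. Its groups overlapped at knockout-labelled animal 2 and wild-type animal 2 (log2 fold change 1.28, SE 0.40, edgeR adjusted p = 0.228). Without knockout-labelled animal 1 its log2 fold change was 0.73, and with the cornea marker covariate it was 2.00 and called (edgeR adjusted p = 0.031), as 0.203% of all genes were. Clu, encoding clusterin, a secreted chaperone on HDL, was the most abundant at 4101 ± 735 and 4635 ± 658 CPM (SD, n = 3 each). Apob was listed at 0 in all 6 libraries, with a floor of 3 counts or at most 0.165 CPM per library.

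All 5 further ABC exporters had log2 fold changes below 0, with a median of -0.19, beside 48.8% of all genes tested below 0. That of Abca5 was near 0 (-0.04). Abcg4 was at 25.8, 14.8 and 22.3 CPM against 28.4, 27.6 and 35.5 CPM, with no overlap (log2 fold change -0.54, SE 0.22, edgeR adjusted p = 0.322). The log2 fold change of Abcg4 was -0.34 with the GC offset, -0.34 when knockout-labelled animal 2 was left out and -0.27 once the corneal marker level was in the fit. Abca2 had 120 ± 19.3 and 144 ± 13.9 CPM (log2 fold change -0.27, and -0.07 with the GC offset), and Abca5 had 52.0 ± 0.74 and 53.4 ± 8.34 CPM (SD, n = 3 each).

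Of 13 receptors and adaptors tested, 10 had log2 fold changes below 0 and 3 above, beside 48.8% of all genes tested below 0. Stab1, a scavenger receptor of macrophages and sinusoidal endothelium, was at 130, 72.3 and 89.4 CPM against 162, 135 and 133 CPM (log2 fold change -0.56). Without knockout-labelled animal 1 it was at -0.83 and called (edgeR adjusted p = 0.0258). Stab1 was at -0.34 once the corneal marker level was in the fit. Lrp8, an apoE and reelin receptor, had a log2 fold change of -0.55, which was -0.36 when knockout-labelled animal 2 was left out and -0.09 once the corneal marker level was in the fit. Sort1 (log2 fold change -0.17) and Lrpap1 (-0.13), the chaperone of LRP1, were the most abundant of the list.

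Enzymes and inhibitors that work on lipoproteins in the vessel differed in sign. Angptl4, an inhibitor of lipoprotein lipase, was at 8.96, 9.49 and 15.8 CPM against 55.0, 20.0 and 25.1 CPM. The groups of Angptl4 did not overlap, and wild-type animal 1 lay far above the rest (log2 fold change -1.54, SE 0.39, edgeR adjusted p = 0.173). Without that animal the log2 fold change was -0.98. DESeq2 (adjusted p = 0.00382) and the edgeR exact test (adjusted p = 0.0109) called it. Lpl, lipoprotein lipase, was at 61.6, 92.7 and 70.6 CPM against 62.3, 48.9 and 44.3 CPM (log2 fold change 0.53, and 0.19 with the cornea marker covariate), with an overlap of 1 library on each side. Lcat, which esterifies cholesterol on HDL, was at 0.78 ± 0.37 and 2.46 ± 0.84 CPM (SD, n = 3 each), and Lmf1, a lipase maturation factor, had a log2 fold change of -0.43 (-0.24 with the cornea marker covariate).

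Inside the cell, 8 of 15 tested genes of cholesterol transport and turnover lay above 0 and 7 below. Ch25h, which makes 25-hydroxycholesterol, an oxysterol ligand of LXR, was at 15.5, 24.1 and 23.7 CPM against 10.2, 13.3 and 7.60 CPM, with no overlap. Its log2 fold change was 1.03 (SE 0.26, edgeR adjusted p = 0.18). It was called by DESeq2 (adjusted p = 0.0246), by the edgeR exact test (0.0318) and by edgeR without knockout-labelled animal 1 (adjusted p = 0.035). Tspo, an outer mitochondrial membrane protein that binds cholesterol, was at 154, 50.5 and 86.1 CPM against 206, 242 and 179 CPM. Its log2 fold change was -1.11 (SE 0.34, edgeR adjusted p = 0.219), with calls by DESeq2 (adjusted p = 0.0183) and by edgeR without knockout-labelled animal 1 (-1.61, adjusted p = 0.0169). With the cornea marker covariate Tspo was at -0.60. Stard4, a cytosolic sterol carrier, was at 16.7, 21.6 and 21.1 CPM against 12.4, 15.9 and 12.8 CPM (log2 fold change 0.53). Lipa, the lysosomal acid lipase that frees cholesterol for NPC2, had 208 ± 21.3 and 192 ± 23.9 CPM (SD, n = 3 each).

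The LXR system showed small differences. Nr1h2, which encodes LXR beta, was at 59.0, 56.7 and 53.4 CPM against 79.2, 71.0 and 66.4 CPM, with no overlap (log2 fold change -0.36, SE 0.12, edgeR adjusted p = 0.247). With the GC offset the log2 fold change of Nr1h2 was -0.055. The partner gene Rxra was at 143 ± 7.08 and 142 ± 12.6 CPM, and the LXR target Srebf1 at 248 ± 80.2 and 250.4 ± 50.01 CPM (SD, n = 3 each). Over the 10 genes of this list the median log2 fold change was 0.04, with 6 above 0 and 4 below. Abca1 and Abcg1, the LXR targets among the exporters, were thus at -0.32 and 0.10 beside a list whose median was near that of all genes.

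**Figure D5:**
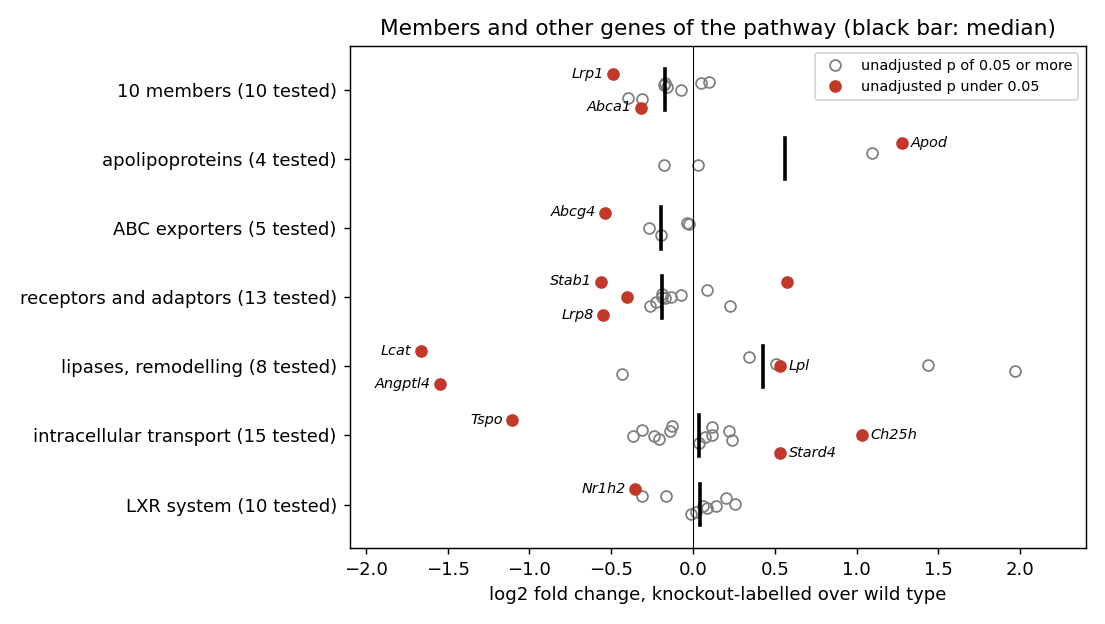
Log2 fold change of the 10 genes and of 55 other genes of the pathway by list (knockout-labelled over wild type). Filled red points had an unadjusted p under 0.05 and none was called after adjustment, open points did not, and black bars are medians. Abca1 and Lrp1 lie left of 0, and Apod, Lpl, Stard4 and Ch25h right of it.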

How the data were processed

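Polyadenylated RNA of the RPE-choroid was sequenced from 3 animals per genotype. The deposited counts per gene are whole numbers, made with TopHat, Bowtie and HTSeq on mm10, per the submitters' processing notes. For the strand setting, annotation and tool versions, the entry is "not given in the sources used here". The authors' deposited edgeR table gives log2 fold changes (wild type over knockout, judged from the counts) and p-values; its sign was turned here. The counter's 5 tally rows entered neither the library sizes nor any test, and the tally of reads in no gene came to 14.4% to 16.8%.

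The 10 genes, the pathway and marker lists and the alternatives were chosen with earlier results of these data known. From each pathway list the rule named up to 4 called genes, or, with none called, up to 4 with an unadjusted p under 0.05 (smallest first), plus the 2 with the highest mean CPM. Some genes that the rule named are not reported here. Apob was named after its values were seen. The test was edgeR 4.0.16, run in R 4.3.3 (filterByExpr with minimum count 10 and minimum total 15, TMM, glmQLFit, glmQLFTest, genotype as the only term), after a check on simulated data. Standard errors are the log2 fold change over the square root of F, and 95% intervals use the test's moderated degrees of freedom. Profiles use log2 CPM with 0.5 counts added. Exon lengths, GC content and gene positions came from GENCODE M21 (GRCm38), matched for 23027 of 23420 gene rows. DESeq2 1.42.0, limma-voom (limma 3.58.1), other scalings and filters, covariates, a GC offset (lowess span 0.3) and leaving out each library were tried. Animals are separate, so p-values measure the spread between animals; counting intervals and floors cover counting error only.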

Additional observations from a re-analysis of the deposited data

How the results depend on the processing

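None of the 10 genes was called in the 17 alternatives. Over these their log2 fold changes kept the sign in 155 of 169 values; Apoa1 has 16, since a minimum of 1 CPM in 3 libraries leaves it out. Abca1, Lrp1, Apoe and Scarb1 kept theirs throughout, from -0.39 to -0.24, -0.64 to -0.28, -0.55 to -0.14 and -0.44 to -0.05. Signs turned for Apoa1 (0.090) and Pltp (0.0095) with the GC correction, and for Vldlr (0.11), Pltp (0.31) and Soat1 (0.26) with the cornea marker covariate. Leaving out 1 library at a time gave -0.94 to 0.42 for Apoa1, -0.069 to 0.23 for Abcg1, -0.21 to 0.025 for Vldlr, -0.55 to 0.030 for Pltp, -0.56 to 0.034 for Soat1 and -0.11 to 0.18 for Npc2. The cause was not tested. Of the 10 genes, 2 had an unadjusted p under 0.05 in edgeR; without knockout-labelled animal 1 it was 6 (Abca1, Apoe, Lrp1, Pltp, Scarb1 and Soat1), with 23.0% of all genes, and with DESeq2 3. It was 1 (Abca1) with the GC correction (12.2% of all genes) and 3 without wild-type animal 3 (10.8%). It was 0 with the cornea marker covariate (8.51%) and with the replicate block (10.1%). It was also 0 without knockout-labelled animal 2 (9.43%) or 3 (10.7%), and without wild-type animal 1 (11.0%) or 2 (8.55%).

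The count of all genes called was 8, against 15 (upper-quartile factors), 22 (no filter beyond 1 count), 16 (the stricter filter), 493 (DESeq2), 357 (edgeR exact test), 13 (limma-voom), 32 (cornea marker covariate) and 1 (sex covariate, read from Xist and Y-linked genes), and 0 to 795 when 1 library was left out, the 795 without knockout-labelled animal 1. It was 0 without knockout-labelled animal 2 or 3 or wild-type animal 3, where 1516, 1719 and 1738 genes had an unadjusted p under 0.05 in edgeR. With the animal number as a replicate block 1 gene was called and none of the 10. Deviations of same-numbered animals correlated at -0.07, -0.07 and -0.05, so no pairing by number was seen. This check would miss a shared effect that is small beside the other differences within a group. Of the pathway genes 0 were called, against 4 (DESeq2), 2 (edgeR exact test) and 1 (cornea marker covariate), and 0 to 3 when 1 library was left out. Named pathway genes kept their sign in 360 of 374 values. With the cornea marker covariate the sign turned for Clu (0.028), Abca5 (0.088), Lrpap1 (0.0073), Srebf1 (0.45) and Rxra (-0.079), with the GC correction for Lipa (-0.011) and Srebf1 (0.20), and with no filter for Rxra (-0.00107). Leaving out 1 library turned the sign for Abca5 (-0.15 to 0.072), Lipa (-0.0044 to 0.19), Srebf1 (-0.25 to 0.21) and Rxra (-0.071 to 0.076).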
